A study of Mus musculus with 4 samples.

Results

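The Lce1 genes encode late cornified envelope proteins, and the 13 genes whose symbol starts with Lce1 were taken from the 10327 genes of a mouse ribosome profiling table. The members were chosen by symbol, and the family was selected on its CPM values in the cKO and Ctrl libraries, which were already known, so its genotype comparison is a description and carries no test. Ribosome profiling sequences the stretches of mRNA shielded by ribosomes (footprints of 25 to 35 nt here), and values are CPM, a gene's reads for every 1000000 reads of its library. Epidermal keratinocytes were taken from newborn mice at P0 in 2 groups of 2 libraries. The cKO mice had the genotype K14Cre,Mettl14F/F and the Ctrl mice K14Cre,Mettl14F/+, so that both groups carried the Cre transgene and at least 1 floxed Mettl14 allele, and neither group was treated. The K14 promoter is active in basal keratinocytes, so the more superficial cells that make envelope proteins carry a deletion made in the cells they descend from. Mettl14 encodes a core subunit of the enzyme complex that places N6-methyladenosine (m6A) on mRNA. The labels number the replicates without saying whether different animals gave them, and their spread may therefore be technical only.

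The cornified envelope is a shell of crosslinked protein that replaces the plasma membrane of keratinocytes as they die at the skin surface. Involucrin and other scaffold proteins are laid down first, loricrin makes up most of the mass, and late cornified envelope proteins are added in the last stages of terminal differentiation. These proteins are small and rich in cysteine, glycine and serine, and their genes sit in the epidermal differentiation complex together with those for loricrin, involucrin, the small proline-rich proteins and the fused S100 proteins of the filaggrin type.

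The 13 genes lay on chromosome 3 of GRCm38 between 92646535 and 93019060, a span of 372.526 kb, with 12 genes on the minus strand and Lce1c on the plus strand. Each coding sequence lay within 1 exon and was 399 to 546 bases long, against a median of 1458 bases over all genes, and none of the 13 had an exon that overlapped another annotated gene. The annotation holds 14 Lce1 symbols, and the remaining gene, Lce1k, was not among the 10327 listed genes. The first 300 coding bases are shown for the member that shares least sequence with other genes, Lce1m, and for the pair that shares most 30-base stretches with each other, Lce1h and Lce1i. They were read from GENCODE transcripts of GRCm38 on the minus strand, at chr3:93018329-93018628 for Lce1m, chr3:92763544-92763843 for Lce1h and chr3:92777568-92777867 for Lce1i. Capitals mark bases that lie in a 30-base stretch of the coding sequence found in no other annotated gene. Lower case marks bases that no such stretch covers, and stretches that reach into the untranslated parts were not counted.
Lce1m: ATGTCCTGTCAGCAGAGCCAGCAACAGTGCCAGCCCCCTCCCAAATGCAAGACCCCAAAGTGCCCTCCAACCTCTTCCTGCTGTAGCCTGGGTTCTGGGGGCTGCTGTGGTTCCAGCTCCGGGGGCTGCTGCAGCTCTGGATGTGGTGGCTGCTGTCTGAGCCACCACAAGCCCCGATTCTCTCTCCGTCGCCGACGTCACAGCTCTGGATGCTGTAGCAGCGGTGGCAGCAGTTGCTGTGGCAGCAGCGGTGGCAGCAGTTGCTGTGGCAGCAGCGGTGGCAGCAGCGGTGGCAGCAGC
Lce1h: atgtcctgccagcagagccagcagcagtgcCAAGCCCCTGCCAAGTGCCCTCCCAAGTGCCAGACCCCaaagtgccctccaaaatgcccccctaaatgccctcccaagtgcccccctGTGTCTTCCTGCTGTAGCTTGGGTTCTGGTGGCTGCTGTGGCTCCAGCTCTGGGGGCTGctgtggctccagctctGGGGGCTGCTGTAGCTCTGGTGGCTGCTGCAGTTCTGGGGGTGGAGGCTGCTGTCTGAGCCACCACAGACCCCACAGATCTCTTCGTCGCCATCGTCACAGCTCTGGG
Lce1i: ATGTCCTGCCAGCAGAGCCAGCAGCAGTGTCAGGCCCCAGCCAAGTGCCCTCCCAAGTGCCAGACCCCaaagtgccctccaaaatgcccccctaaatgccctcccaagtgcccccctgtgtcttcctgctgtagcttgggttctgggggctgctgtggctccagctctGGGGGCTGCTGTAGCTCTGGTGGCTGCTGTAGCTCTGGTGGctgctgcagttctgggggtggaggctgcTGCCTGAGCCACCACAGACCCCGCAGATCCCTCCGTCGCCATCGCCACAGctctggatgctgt
In these windows 300 of 300 bases of Lce1m were in capitals, 205 of Lce1h and 159 of Lce1i. In frame, the cysteine codons TGC and TGT recur from the start of all 3 windows. The glycine codons GGN, and most serine codons, follow a first stretch of each window that holds no glycine codon.

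Sequence shared within the family bears on every footprint value given for it. Over whole coding sequences, the share of 30-base stretches found in no other gene was 98.3% for Lce1m, 62.5% for Lce1l, 51.0% for Lce1j, 48.3% for Lce1a2 and 47.6% for Lce1f. It was 41.7% for Lce1h, 37.0% for Lce1e, 34.3% for Lce1a1, 31.6% for Lce1c, 28.1% for Lce1d, 27.6% for Lce1g, 23.6% for Lce1b and 23.0% for Lce1i. The family median was 37.0%, the median of all genes was 100%, and 3.85% of genes were at or below the family median. Lce1h and Lce1i had 142 such stretches in common, out of 391 in Lce1h and 418 in Lce1i. Every member shared at least one 30-base stretch with the annotated gene Gm38119, and 11 of the 13 shared one with Lce1k. Over aligned coding bases, gaps left out, the 78 pairs of members were 83.3% to 97.0% identical; the closest pair was Lce1g and Lce1h, and the most distant was Lce1a2 and Lce1m. Without Lce1m the lowest identity of the other 66 pairs was 89.8%. How reads that match several genes were counted is not given in the sources used here, so the values of single members other than Lce1m are uncertain to an extent that could not be measured.

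The family also stood apart in composition. Glycine codons made up 17.8% to 26.9% of a member's codons, against a median of 6.28% over all genes. Cysteine codons made up 17.0% to 23.0%, against a median of 1.87%, and only 5 genes outside the family reached the lowest of these shares, among them Crct1 from within the Lce1 block and 3 Sprr2 genes. Serine codons made up 20.7% to 36.3%, against 7.77%, with the highest share in Lce1m. The GC content of 61.2% to 65.0% compared with a median of 53.0%. The m6A complex is known to favour sites that hold GGAC, GGACT in particular. On the gene strand, GGAC occurred in the first 300 coding bases of 0 of 13 members and of 80.2% of the 10179 genes with that much coding sequence, and the longer GGACT, which contains it, in 0 of 13 and 32.0%. Over whole coding sequences 4 members, Lce1d, Lce1e, Lce1g and Lce1l, held GGAC, and the same 4 held GGACT. The share over all genes is not given for whole coding sequences, so this count has no background beside it. The 300-base window leaves out the rest of the coding sequence and the untranslated parts. Members share much of their sequence, so they are not separate observations. These letters were only searched for, and m6A itself was not measured here.

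The libraries were shallow for genes of this size. They held 542074 reads in cKO 1, 751948 in cKO 2, 933574 in Ctrl 1 and 624167 in Ctrl 2, so that 1 read was worth 1.84, 1.33, 1.07 and 1.60 CPM in that order. The median member had 5, 18, 13 and 18 reads in the same libraries, and 9 members in cKO 1, 2 in cKO 2, 4 in Ctrl 1 and 1 in Ctrl 2 had under 10. Mettl14 itself, which checks the genotype labels, stood at 9.22 and 5.32 CPM in cKO and at 27.9 and 27.2 CPM in Ctrl (5, 4, 26 and 17 reads). Neither limma (adjusted p = 0.122) nor edgeR with TMM (adjusted p = 0.185) called Mettl14 at an adjusted p under 0.05. The keratins Krt1 and Krt10, which define suprabasal keratinocytes, were the main keratin genes measured, with Krt10 at 35677 CPM in its lowest library. Markers of other cells were present too: 9 of 9 fibroblast genes summed to 2107 and 1363 CPM in cKO and to 4546 and 2897 CPM in Ctrl, and 0 of 5 endothelial markers were among the listed genes. Every listed gene had at least 1 read in each library, so a gene without a read in some library is not listed.

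Levels within the family were compared per kilobase of coding sequence, since length sets how many ribosomes an mRNA can hold. Lce1m, which lies at the far end of the block (chr3:93017810-93019060), had the highest mean level in both groups, 172 ± 46.7 CPM per kb in cKO and 253 ± 77.8 CPM per kb in Ctrl (SD, n = 2 each). Lce1a1, at the opposite end (chr3:92646535-92648307), came next with 111 ± 35.6 CPM per kb in cKO and 114 ± 23.6 CPM per kb in Ctrl. Lce1c followed with 97.5 ± 10.0 CPM per kb in cKO and 107 ± 44.4 CPM per kb in Ctrl. Lce1a1 and Lce1c, neighbours in that order, did not differ beyond their spread in either group. Between them these 3 genes took 63.7% and 50.3% of the family's reads in cKO 1 and cKO 2, and 60.4% and 50.3% in Ctrl 1 and Ctrl 2. The other 10 members lay between 18.7 and 51.8 CPM per kb in cKO and between 17.3 and 78.8 CPM per kb in Ctrl. Neighbours in the order among these 10 did not differ beyond their spread. In Ctrl the values of Lce1c (75.3 and 138 CPM per kb) overlapped those of Lce1f (55.9 and 102), the highest of these 10 by mean. Lce1i, the member with the smallest share of unshared sequence, was the lowest in both groups, at 18.7 ± 3.1 CPM per kb in cKO and 17.3 ± 0.8 CPM per kb in Ctrl.

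This order holds for reads counted over the whole coding sequence, and it changed when the same reads were divided by the kilobases of unshared 30-base stretches alone, the scale suited to a count of uniquely matching reads. On that scale Lce1a1 averaged 348 CPM per unshared kb in cKO and 357 in Ctrl. Lce1c averaged 331 CPM per unshared kb in cKO and 362 in Ctrl. Lce1m, nearly all of it unshared, averaged 184 CPM per unshared kb in cKO and 272 in Ctrl, below both of them. Lce1j was then the lowest in cKO, at 39.5 CPM per unshared kb, and Lce1i the lowest in Ctrl, at 80.8. Which of the scales applies depends on how multiply matching reads were counted, so the order of Lce1m, Lce1a1 and Lce1c is uncertain.

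**Figure D1:**
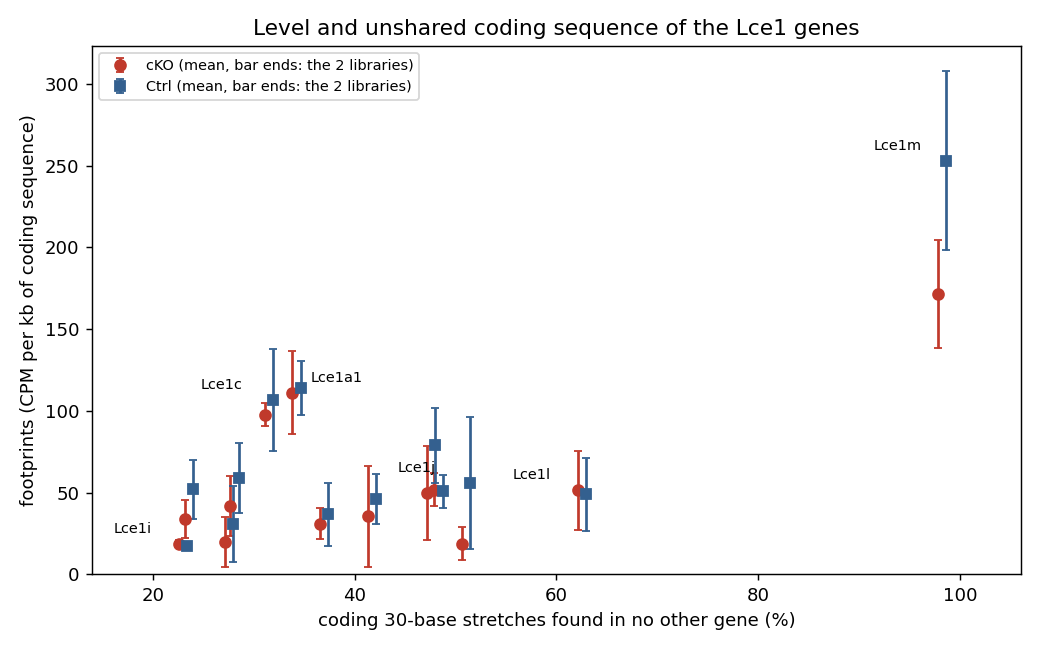
Mean footprint level of each of the 13 Lce1 genes (CPM per kb of coding sequence, linear axis) against the share of its 30-base coding stretches found in no other gene (%), with cKO in red circles and Ctrl in blue squares, shifted slightly apart along the horizontal axis. Bar ends are the 2 libraries of a group; Lce1m stands alone at 98.3%, and Lce1a1 and Lce1c are high with only 34.3% and 31.6% unshared.

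As the plot of level against unshared sequence shows, the order of the members did not simply follow how much of their sequence is their own. Over the 13 members Spearman's rho between the 2 quantities was 0.47 in cKO and 0.37 in Ctrl, and 0.32 and 0.20 without Lce1m. The points share their libraries and, through shared reads, part of their counts, so these coefficients are descriptions. The rank order of the members per kb was alike between libraries, with rho from 0.63 (cKO 1 with Ctrl 2) to 0.87 (cKO 2 with Ctrl 1).

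Lce1m, the member with the most reads and the least shared sequence, had 75.6 and 112 CPM in cKO against 108 and 168 CPM in Ctrl (41, 84, 101 and 105 reads). The value of cKO 2 lay just above that of Ctrl 1, so the groups overlapped. The means were 93.7 ± 25.5 CPM in cKO and 138 ± 42.5 CPM in Ctrl (SD, n = 2 each), a log2 change of -0.55 ± 0.28 (SE of limma) on log2(CPM + 1). The log2 change was -0.27 with edgeR and TMM, -0.27 without cKO 1 and -0.23 without Ctrl 2, and -0.83 without cKO 2 and -0.86 without Ctrl 1.

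Lce1a1 had 36.9 and 58.5 CPM in cKO, against 41.8 and 56.1 CPM in Ctrl. The highest and the lowest of its 4 values were both cKO libraries, and its log2 change was -0.06 ± 0.35. Lce1c had 46.1 and 39.9 CPM in cKO, against 33.2 and 60.9 CPM in Ctrl. Both cKO values lay between the Ctrl values, and the log2 change was -0.07 ± 0.37. The small negative changes of Lce1a1 and Lce1c turned positive after median centring (0.15 and 0.14) and with edgeR and TMM scaling (0.26 and 0.16). Without single libraries the log2 change ran from -0.38 to 0.27 for Lce1a1 and from -0.50 to 0.36 for Lce1c.

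Lce1j had the most negative log2 change of the family, -1.16 ± 0.72, from 3.69 and 12.0 CPM in cKO against 6.43 and 40.1 CPM in Ctrl. These values stood on 2, 9, 6 and 25 reads, and the Ctrl 2 library alone was high: without it the log2 change was 0.07. Lce1h had 1.84 and 27.9 CPM in cKO, against 12.9 and 25.6 CPM in Ctrl. The lowest and the highest value were the 2 cKO libraries, with a single read in cKO 1. Its log2 change of -1.08 ± 0.76 became 0.59 without cKO 1, -2.76 without cKO 2 and 0.064 with edgeR and TMM. Lce1f had 9.22 and 34.6 CPM in cKO, against 24.6 and 44.9 CPM in Ctrl. Only cKO 1 lay below both Ctrl libraries, and the log2 change of -0.85 ± 0.53 became 0.05 without it.

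Lce1g had 1.84 and 14.6 CPM in cKO, against 3.21 and 22.4 CPM in Ctrl, a log2 change of -0.58 ± 0.81. Within each group it was several times higher in the library numbered 2, and the groups overlapped widely. The change was 0.65 without cKO 1 and 0.66 without Ctrl 2, and -1.80 without cKO 2. Lce1b had 9.22 and 18.6 CPM in cKO, against 13.9 and 28.8 CPM in Ctrl, a log2 change of -0.58 ± 0.55. Lce1d had 9.22 and 23.9 CPM in cKO, against 15.0 and 32.0 CPM in Ctrl, a log2 change of -0.53 ± 0.55. In both of these genes cKO 1 was lowest and Ctrl 2 highest, with the other 2 libraries between them. Without cKO 1 the log2 change was -0.11 for Lce1b and 0.12 for Lce1d, and without Ctrl 2 it was -0.076 for Lce1b and -0.0026 for Lce1d. Lce1e had 9.22 and 17.3 CPM in cKO, against 7.50 and 24.0 CPM in Ctrl, a log2 change of -0.09 ± 0.61. Here both cKO values lay inside the range of the Ctrl values, and the change was 0.12 after centring and 0.15 with edgeR and TMM.

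The remaining 3 members had a log2 change above 0 with limma on all 4 libraries, and below 0 in at least one fit that left out a library. Lce1l had 11.1 and 30.6 CPM in cKO, against 10.7 and 28.8 CPM in Ctrl, a log2 change of 0.06 ± 0.57. Its 2 low values were the libraries numbered 1 and its 2 high values those numbered 2, and the change ran from -0.63 to 0.76 without single libraries. Lce1a2 had 27.7 and 18.6 CPM in cKO, against 18.2 and 27.2 CPM in Ctrl, a log2 change of 0.03 ± 0.47. It was the one member with its highest value in cKO 1. Lce1i had 7.38 and 9.31 CPM in cKO, against 7.50 and 8.01 CPM in Ctrl, a log2 change of 0.09 ± 0.61. All 4 of its values lay close together, on 4 to 7 reads each.

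**Figure D2:**
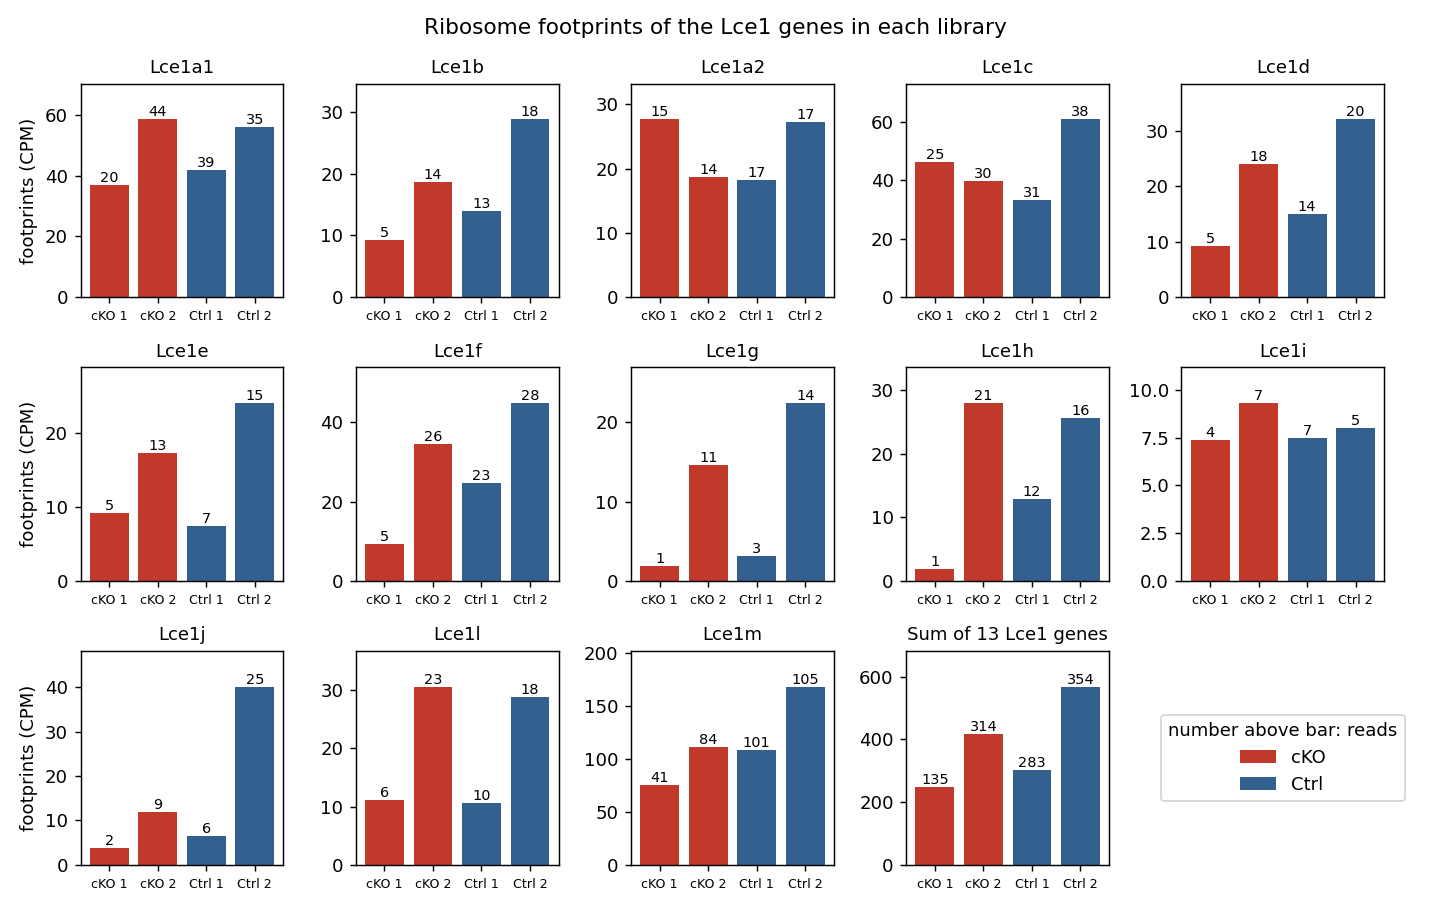
CPM of each of the 13 Lce1 genes and of their sum in each library (bars from 0, each panel with its own axis), cKO in red and Ctrl in blue, with the number of reads above each bar. The lowest bar is a library numbered 1 in all 13 genes (cKO 1 in 9, Ctrl 1 in 4), and the highest is Ctrl 2 in 8.

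As the bars of CPM by library show, the libraries differed more by replicate number than by genotype. Of the 13 members 11 were higher in cKO 2 than in cKO 1, where 49.2% of all genes were, and 13 were higher in Ctrl 2 than in Ctrl 1, where 54.2% of all genes were. The median ratio of library 2 to library 1 over members was 2.02 in cKO and 1.99 in Ctrl, against 0.99 and 1.06 over all genes. Of the 2 low libraries, cKO 1 was the shallowest of the 4 and Ctrl 1 the deepest. Other genes of the late epidermis leaned the same way to unequal degrees. For the sum of 7 small proline-rich genes the ratio of library 2 to library 1 was 1.71 in cKO and 1.72 in Ctrl. It was 1.41 and 1.47 for Lor, the gene of loricrin. For the sum of 11 envelope core and crosslinking genes it was 1.40 and 1.22, and for 6 fused S100 genes 1.19 and 1.19. The sum of 10 hair follicle markers leaned this way too, with ratios of 1.42 in cKO and 1.15 in Ctrl. The sum of 9 fibroblast markers leaned the other way, with ratios of 0.65 in cKO and 0.64 in Ctrl. Their part in the spread of the Lce1 values was not tested.

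Summed over the family, Lce1 footprints stood at 249 and 418 CPM in cKO and at 303 and 567 CPM in Ctrl, on 135, 314, 283 and 354 reads. The cKO 2 library lay between the Ctrl libraries. The means were 333 ± 119 CPM in cKO and 435 ± 187 CPM in Ctrl (SD, n = 2 each), a ratio of 0.77 and a log2 ratio of -0.38, smaller than the spread within either group. Without Ctrl 2 the log2 ratio was 0.14. In bulk libraries, fewer cells that express a gene and fewer footprints per cell cannot be told apart.

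The members are set beside all genes as a description. Of the 13 log2 changes 10 were below 0 with limma (7 after centring, 6 with edgeR and TMM), as were 67.9% of all genes with limma, and the median gene itself stood at -0.24 on the deposited scale, at -0.037 after centring and at 0.0018 with edgeR and TMM. Relative to the median gene 7 members were lower and 6 higher, and 9 lay within 1 SE of it. The family median was -0.53 with limma, -0.32 after centring and 0.064 with edgeR and TMM, and it was 0.12 without cKO 1 and 0.13 without Ctrl 2, so no direction held across these settings. The cKO values were both under the lower Ctrl value in 0 of 13 members and in 34.1% of all genes, and both over the higher one in 0 of 13 and in 11.1%. SEs of the members ran from 0.28 to 0.81 on the log2 scale, against a median of 0.44 over all genes.

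**Figure D3:**
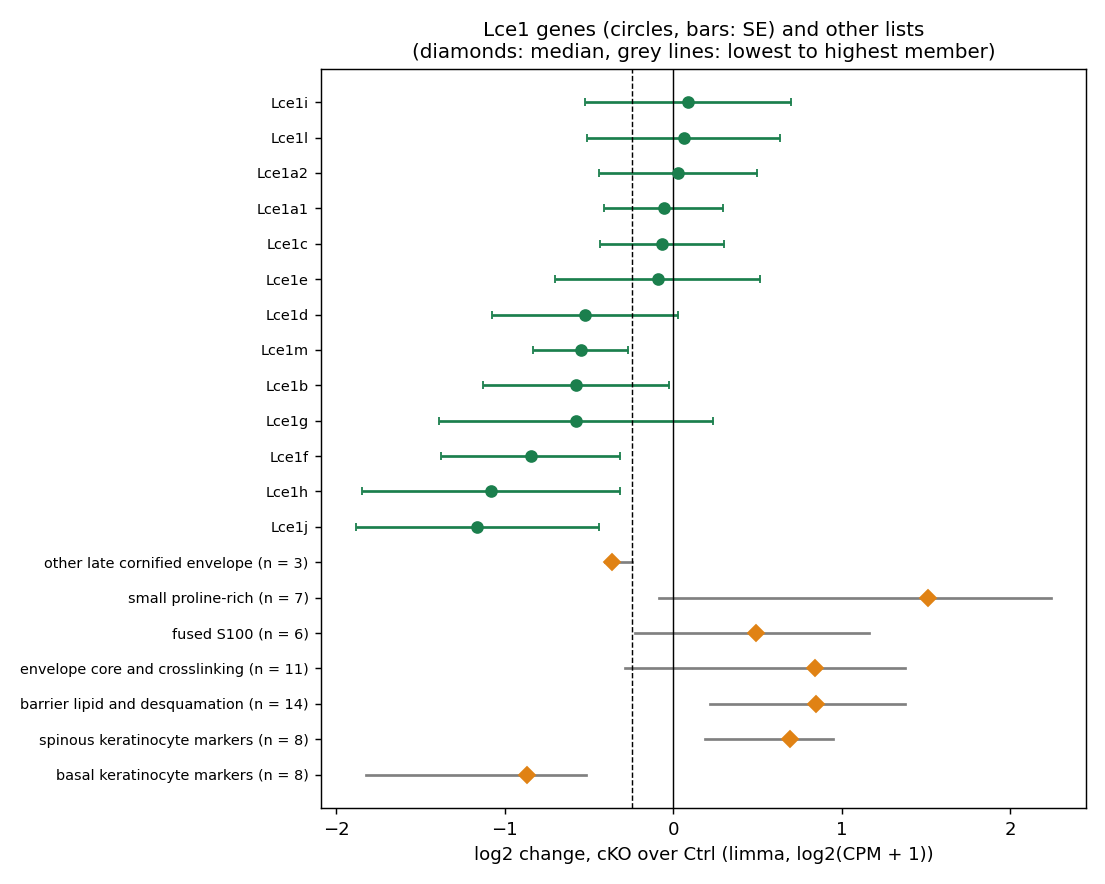
Log2 change, cKO over Ctrl (limma on log2(CPM + 1)), of each Lce1 gene (green circles, bars: SE) and the median of other gene lists (orange diamonds, grey lines from the lowest to the highest member). The dashed line is the median of all genes at -0.24; the Lce1 genes spread from -1.16 to 0.09, while the small proline-rich median is 1.51 (0.47 without cKO 2) and the basal keratinocyte median is -0.87.

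Most other envelope genes had log2 changes above 0, as the plot of log2 changes by list shows. Over all genes limma called 0.668% at an adjusted p under 0.05 (0.368% higher and 0.3% lower in cKO), 14.3% reached an unadjusted p under 0.05, and edgeR with TMM called 1.7% (1.58% higher in cKO). Of 7 small proline-rich genes, whose products are crosslinked into the envelope, limma called 1 higher and 0 lower, and edgeR with TMM 4 higher and 0 lower. Their median log2 change was 1.51, but 0.47 without cKO 2, 0.64 without Ctrl 1 and 0.87 with a pseudocount of 5. Sprr1b had 603 and 938 CPM in cKO against 202 and 311 CPM in Ctrl, a log2 change of 1.58 ± 0.24 (limma, Benjamini-Hochberg adjusted p = 0.00365). Both cKO libraries lay far above both Ctrl libraries. Of 11 genes for the envelope core and its crosslinking, limma called 2 higher and 0 lower, with a median of 0.84. With edgeR and TMM 8 were called higher and 0 lower. The 2 that limma called were Ivl, the gene of involucrin (log2 change 1.35, limma adjusted p = 0.0151), and Tgm3, a transglutaminase that makes the crosslinks (log2 change 1.21, limma adjusted p = 0.0151). Lor had 4503 and 6355 CPM in cKO against 2335 and 3437 CPM in Ctrl, a log2 change of 0.92 ± 0.25 that limma did not call (adjusted p = 0.0945), though edgeR with TMM did (adjusted p = 0.0071). Of 6 fused S100 genes 1 was called higher, Rptn, the gene of repetin (log2 change 1.16, limma adjusted p = 0.0206), and 0 lower, with a median of 0.49; exons of Rptn overlap the annotated gene Gm37857, so its reads may be shared. Without cKO 1 the log2 changes of Sprr1b, Ivl, Tgm3 and Rptn were 1.90, 1.59, 1.48 and 1.32, and without cKO 2 they were 1.26, 1.11, 0.93 and 1.01. Those fits hold 1 cKO library, which is assumed to vary like the Ctrl libraries, and the limma adjusted p of these 4 genes was 0.532 and 0.552. Without Ctrl 1 the log2 change was 0.95 for Rptn and 0.99 for Ivl (limma adjusted p = 0.0959 and 0.0638).

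Other late envelope genes had log2 changes within the range of the Lce1 genes and close to the median of all genes. That median was -0.24 with limma and 0.0018 with edgeR and TMM. The 3 measured genes of the other late envelope list were Kprp, Crct1 and Lce6a, with 0 called in either direction by limma, 0 at an unadjusted p under 0.05, 0 called by edgeR with TMM and a median log2 change of -0.36 (-0.0025 without cKO 1, -0.72 without cKO 2, -0.033 with edgeR and TMM). Kprp, a keratinocyte proline-rich protein gene, had 356 and 459 CPM in cKO against 465 and 618 CPM in Ctrl, and cKO 2 lay just below Ctrl 1. Crct1, a cysteine-rich gene, had 35.1 and 77.1 CPM in cKO against 45.0 and 84.9 CPM in Ctrl, with the groups overlapping. Of 9 S100 genes of the complex 0 were called by limma and 0 by edgeR with TMM, with 1 at an unadjusted p under 0.05 and a median of -0.29 (0.018 with edgeR and TMM). Of 16 regulators of late differentiation limma called 0, with 5 at an unadjusted p under 0.05, 1 called higher by edgeR with TMM and a median of 0.14 (0.40 with edgeR and TMM).

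**Figure D4:**
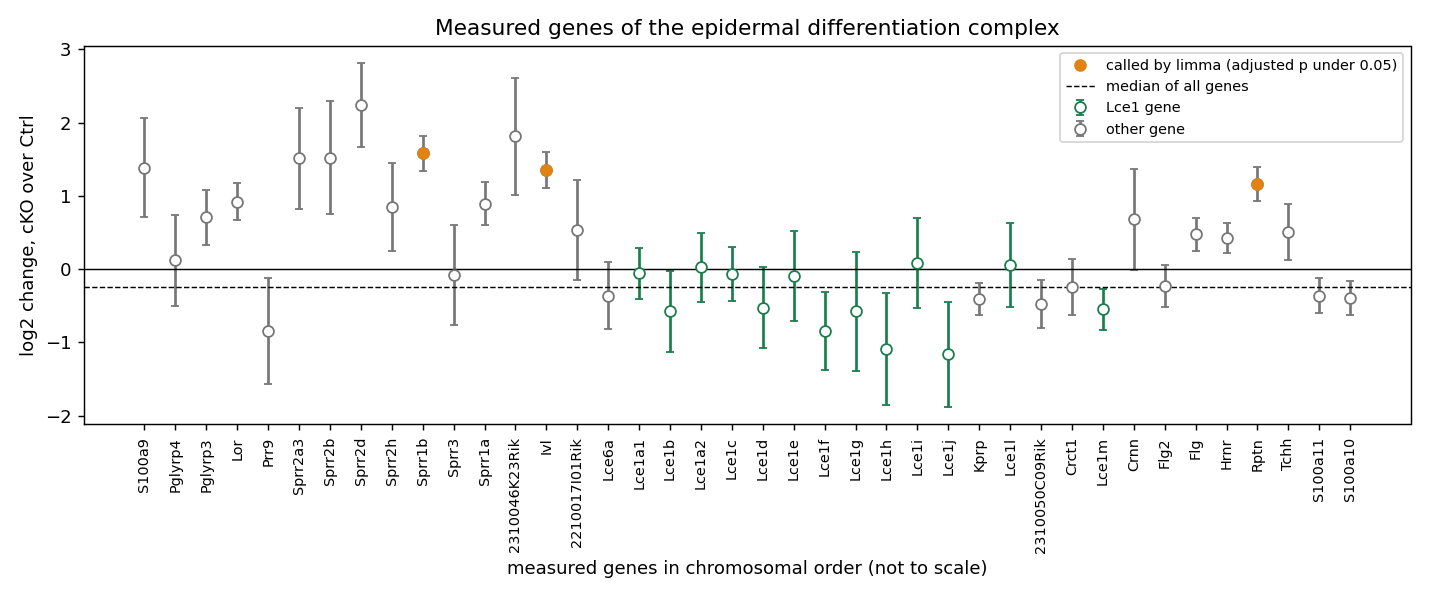
Log2 change, cKO over Ctrl, with its SE (limma) for 40 measured genes of the epidermal differentiation complex, those from S100a9 to S100a10. They are in chromosomal order and equally spaced, and S100 genes of the complex outside that stretch are left out. Lce1 genes are green, other genes grey, and genes called by limma orange. The 13 Lce1 genes and the 3 other genes among them have medians of -0.53 and -0.41, the 16 genes before them 0.90 and the 8 after them 0.45.

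The plot along the epidermal differentiation complex runs from S100a9 to S100a10. Of the 9 measured S100 genes of the complex, 1 above 0 and 8 below 0, it holds only S100a9, S100a10 and S100a11. Within this stretch 16 measured genes lay before the Lce1 block, from S100a9 to Lce6a. Their median log2 change was 0.90, with 13 above 0 and 2 called higher. The 8 after the block, from Crnn to S100a10, had a median of 0.45, with 5 above 0 and 1 called higher. The 3 genes that lie among the Lce1 genes, Kprp, 2310050C09Rik and Crct1, had a median of -0.41 with limma, all below 0 and 0 called. Of all genes 67.9% were below 0 with limma, and the median of all genes was -0.24. With edgeR and TMM the log2 changes of these 3 genes were -0.15, -0.20 and 0.12. On the flanks, Lce6a had 16.6 and 27.9 CPM in cKO against 25.7 and 30.4 CPM in Ctrl, and Crnn, the gene of cornulin, had 14.8 and 3.99 CPM in cKO against 4.28 and 4.81 CPM in Ctrl. Both groups overlapped in each of these flanking genes.

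A ratio within 1 library does not depend on how libraries are scaled to each other. The log2 ratio of summed Lce1 CPM to Lor CPM was -4.18 and -3.93 in cKO, against -2.95 and -2.60 in Ctrl, a log2 difference of -1.28. Relative to the summed CPM of the 7 small proline-rich genes the Lce1 sum amounted to 29.7% and 29.2% in cKO, against 96.6% and 105% in Ctrl, a log2 difference of -1.78. In both ratios the libraries of a group lay close together and the groups did not overlap. Sprr1b made up most of the small proline-rich sum, 770 of 1134 CPM in cKO and 257 of 426 CPM in Ctrl on average. Of the 7 small proline-rich genes 4 lay higher in both cKO libraries than in both Ctrl libraries, as did 11.1% of all genes. Relative to the other late envelope genes the Lce1 sum amounted to 61.1% and 74.1% in cKO, against 56.6% and 77.3% in Ctrl, a log2 difference of 0.02. Here both cKO values lay inside the Ctrl range. Kprp made up most of that denominator, 407 of 486 CPM in cKO and 542 of 635 CPM in Ctrl on average. Relative to the fused S100 genes and to the envelope core list the log2 differences were -0.75 and -1.23, and the cKO and Ctrl values did not overlap. The difference from the fused S100 genes was -0.43 without Ctrl 2 and -1.08 without Ctrl 1. The ratios show unequal values in numerator and denominator and not which of them changed.

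**Figure D5:**
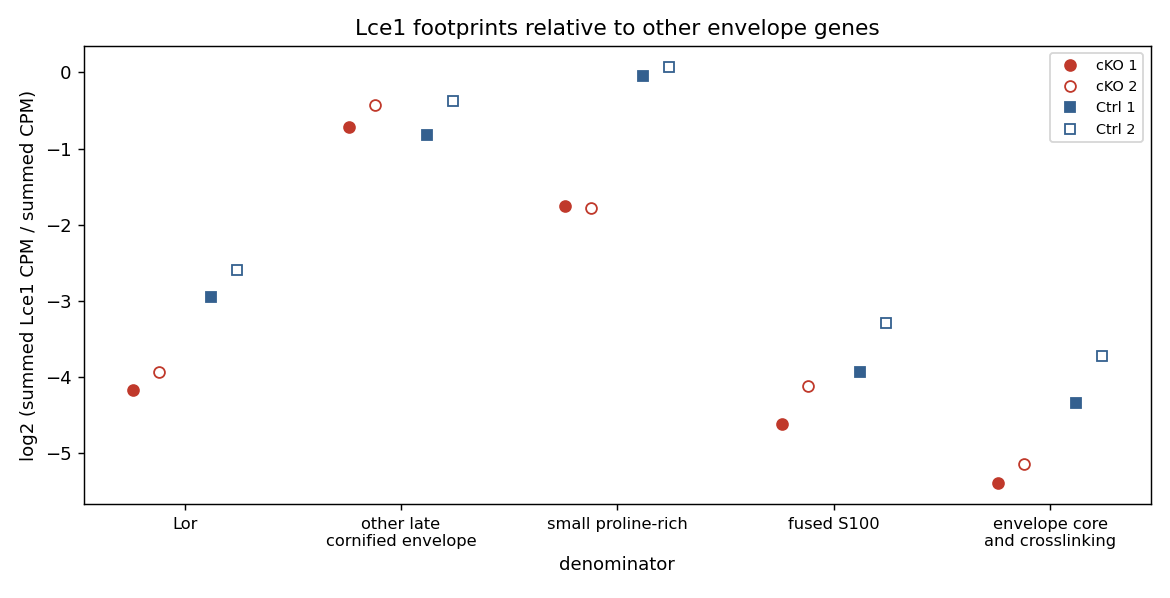
Log2 of the summed Lce1 CPM over the summed CPM of Lor and of 4 other lists in each library, cKO in red circles and Ctrl in blue squares, filled for replicate 1 and open for replicate 2. The groups overlap only for the other late cornified envelope genes (difference 0.02), of which Kprp holds most of the CPM. The largest separation is from the small proline-rich genes (difference -1.78), of which Sprr1b holds most of the CPM.

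Some markers of cell layers and of other cells differed between the genotypes as well. Of 8 basal keratinocyte markers limma called 0 higher and 3 lower, with a median log2 change of -0.87, among them Krt5, a basal keratin gene, with 5580 and 5321 CPM in cKO against 14751 and 11531 CPM in Ctrl (limma adjusted p = 0.0293; 0.201 without Ctrl 1, 0.0677 after centring). Of 8 spinous markers 0 were called by limma, with 5 at an unadjusted p under 0.05, 4 called higher by edgeR with TMM and a median of 0.69. Of 14 barrier lipid and desquamation genes limma called 4 higher and 0 lower, with a median of 0.85. With edgeR and TMM 11 were called higher and 0 lower. Among the 4 that limma called was Spink5, a protease inhibitor gene (limma adjusted p = 0.0206, with a log2 change of 1.03 without Ctrl 1). The log2 changes were -1.26 for Krt5 and 1.38 for Spink5, and they were -1.29 and 1.85 without cKO 1 and -1.22 and 0.91 without cKO 2. Exons of Krt5 overlap those of Gm44323. Of 9 fibroblast markers 0 were called higher and 3 lower, with a median of -1.12, but of -0.33 without Ctrl 1. Of 6 melanocyte markers and 4 immune cell markers limma called 0, with medians of -0.19 and -0.28, near the -0.24 of all genes. Summed red blood cell markers stood at 526 and 98.4 CPM in cKO and at 120 and 80.1 CPM in Ctrl, high in cKO 1 alone. The part of these differences in the Lce1 values was not tested.

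Genes outside the family were ranked by how closely their centred log2(CPM + 1) values over the 4 libraries followed the mean Lce1 profile, among 5160 genes at or above the median level. The nearest by Euclidean distance was 2310050C09Rik, at 0.11, a gene that lies inside the Lce1 block, with 109 and 227 CPM in cKO against 144 and 333 CPM in Ctrl. It was lowest in cKO 1 and highest in Ctrl 2, as the Lce1 sum was. Pacsin3 followed at 0.12 with 24.0 and 57.2 CPM in cKO against 34.3 and 68.9 CPM in Ctrl, and Apoe, the gene of apolipoprotein E, at 0.17 with 736 and 1521 CPM in cKO against 899 and 1793 CPM in Ctrl. Isyna1 and Nfatc1 came next at 0.21 each. The median distance of all candidates was 1.22, and single Lce1 genes lay between 0.18 and 1.73 from their own mean. With 4 libraries such a profile has few points, and the ranking is a description only.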

How the data were processed

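Ribosome footprints of 4 libraries were analysed. The deposited values are CPM over the table's own genes, since each column sums to 1000000. Per the submitters' processing notes fastp, HISAT2, HTSeq and GRCm38 were used; versions, strand setting and treatment of multiply matching reads: not given in the sources used here. In the table the header calls the Ctrl columns WT. Every value was a whole multiple of 1 read (tolerance 1e-06), for 100% of values, so whole reads were recovered; on them edgeR 4.0.16 with TMM called 176 genes. The main fit was limma 3.58.1 (R 4.3.3) with a trend on log2(CPM + 1), group only, over all 10327 genes without a filter, called at a Benjamini-Hochberg adjusted p under 0.05; it called 69. The scale understates changes of low genes. The smallest exact permutation p for 2 against 2 is 0.333, so none was run. P-values measure only the spread between these libraries. In limma the spread of each gene is drawn towards that of genes of like level. The SE and p-value of a gene therefore do not rest on its own values alone.

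Identifiers were matched to GENCODE annotation of GRCm38 (10323 of 10327). Shared sequence was counted on the gene strand against all annotated transcripts; identities came from global alignment in Biopython 1.88. The members, 15 gene lists and tests were chosen with earlier results of these data known. Named genes were all Lce1 genes; Mettl14 and Lor; for each list up to 4 called members, or the 2 most abundant if none was called; genes next to or within the Lce1 block; and the 5 closest profiles. Other scalings, pseudocounts, a filter, DESeq2 1.42.0, a replicate block and leaving out each library were tried.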

Additional observations from a re-analysis of the deposited data

How the results depend on the processing

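The family's median log2 change of -0.53 was 0.064 with edgeR and TMM and ran from -0.87 to 0.13 when single libraries were left out (0.12 without cKO 1). The summed log2 ratio of -0.38 ran from -0.81 to 0.14, and the log2 difference relative to other late envelope genes, 0.02, from -0.20 to 0.25. The difference relative to Lor ran from -1.45 to -1.11, and that relative to small proline-rich genes from -1.84 to -1.71. Relative to fused S100 genes it ran from -1.08 to -0.43, and relative to the envelope core list from -1.54 to -0.92. In these last ratios both cKO values lay below both Ctrl values, so leaving out 1 library could not change the sign. With 26-base and 34-base stretches the unshared part of the family's coding sequence was 37.5% and 49.7%, against 43.9% with 30 bases. The 69 genes called became 23 (14 higher, 9 lower) with a filter of 10 CPM in at least 2 libraries, which removed Lce1i, 113 (105 and 8) after centring, 176 (163 and 13) with edgeR and TMM, 118 (62 and 56) with edgeR and library totals and 87 (83 and 4) with DESeq2. They ran from 0 to 139 without single libraries (higher 0 to 104, lower 0 to 44). Over the other lists 15 genes were called, 7 with the filter, 27 after centring, 36 with edgeR and TMM, 29 with library totals, 25 with DESeq2 and 0 to 27 without single libraries. With the replicate number as a block 839 genes were called (257 higher, 582 lower), 56 of them in the other lists, and the Lce1 median stayed at -0.53; the correlation of equally numbered deviations was 0.195, with only 2 pairs and no label that pairs them, so the numbers were not taken as pairs. The causes were not tested.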
